A study of Caenorhabditis elegans with 2 samples.

Results

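Autosomal intergenic regions of MES-4 recovery are described here, that is, pooled regions of the 5 autosomes that lie away from small structural RNA genes, outside protein-coding genes and outside their promoters. A region was taken when its summit lay more than 220 bp from any tRNA, snRNA or snoRNA gene, inside no protein-coding gene and not within 500 bp upstream of the 5' end of one. Of 12028 regions in the pooled list, 10295 lay on autosomes, and 1669 of these met the rule (16.2%, exact 95% interval 15.5 to 16.9). The study measured by ChIP-seq where MES-4 is recovered on chromatin. It holds 1 group with 2 biological replicates, and no second genotype, treatment or stage. All animals were whole young adult hermaphrodites of Caenorhabditis elegans strain RW10325, collected 63 h after synchronisation by L1 starvation following bleaching. They carried a stably expressed transgene that joins GFP and FLAG to the C terminus of MES-4, and chromatin was recovered with an antibody against GFP. The promoter that drives the transgene is not given in the sources used here, and whole animals mix germline and somatic nuclei.

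MES-4 is a methyltransferase of lysine 36 on histone H3. In C. elegans it is known for maintaining this mark in the germline on genes that were transcribed in germ cells, and for its concentration on autosomes in the early germline. Intergenic sequence between a gene's 3' end and its neighbour contains transcription termination regions, while sequence before a 5' end contains promoters. RNA polymerase III transcribes tRNA genes from promoter elements inside the gene, called the A box and the B box, so such elements can also be recognised in sequence where no tRNA gene is annotated.

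The strongest members by signal are shown by sequence because they differ in what lies under the summit. Each line gives the summit base with 75 bases on either side, from the RefSeq WBcel235 genome (ce11), plus strand, 5' to 3', and capitals mark a match to the A box or to the B box core (on either strand). The first lies over the microRNA gene cel-mir-51 (chrIV:11026016-11026166), and the noncoding RNA gene F36H1.17 is at or within 220 bp of its summit. The second lies over the noncoding RNA gene K10H10.14 (chrII:14497002-14497152), and K10H10.11, also a noncoding RNA gene, is at or within 220 bp of its summit. The others lie over no annotated gene (chrII:5353805-5353955, chrV:5667456-5667606, chrIV:8375484-8375634 and chrV:12510096-12510246). Names are those of the flanking protein-coding genes.
alh-3/hrg-5: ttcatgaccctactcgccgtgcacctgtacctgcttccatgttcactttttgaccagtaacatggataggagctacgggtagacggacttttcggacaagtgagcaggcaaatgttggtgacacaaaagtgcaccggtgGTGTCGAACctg
cysl-2/dhs-8: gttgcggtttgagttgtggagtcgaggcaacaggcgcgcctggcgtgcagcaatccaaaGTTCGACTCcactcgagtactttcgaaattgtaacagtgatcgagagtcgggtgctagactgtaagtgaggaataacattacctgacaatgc
F09E5.7/srg-69: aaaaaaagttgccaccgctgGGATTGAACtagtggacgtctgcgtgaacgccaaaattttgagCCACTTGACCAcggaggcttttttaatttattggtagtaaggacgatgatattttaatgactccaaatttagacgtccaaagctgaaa
C14C11.7/pqn-13: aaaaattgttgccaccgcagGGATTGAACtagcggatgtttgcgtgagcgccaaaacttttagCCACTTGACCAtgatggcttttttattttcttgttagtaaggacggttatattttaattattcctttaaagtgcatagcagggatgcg
aagr-1/D2096.7: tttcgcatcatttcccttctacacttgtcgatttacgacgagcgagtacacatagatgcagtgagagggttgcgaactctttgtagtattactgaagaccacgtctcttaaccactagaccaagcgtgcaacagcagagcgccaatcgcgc
nlp-46/T28H10.2: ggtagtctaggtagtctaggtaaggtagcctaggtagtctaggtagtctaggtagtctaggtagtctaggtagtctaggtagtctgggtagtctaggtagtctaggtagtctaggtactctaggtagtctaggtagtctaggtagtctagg
The third and the fourth each hold an A box and a B box core on the minus strand, and they are identical at 112 of the printed positions (74.2%) although they lie on different chromosomes. In the first and the second, only a B box core matched. The fifth holds no B box core, and its match to the A box on the minus strand (ccactagacca as printed) is unpaired and so not in capitals. The last is a tandem repeat with a period of 9 bases, at which 92.3% of positions equal the base one period on.

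Intergenic regions were sparse for the sequence they occupy. Sequence that met the rule made up 23.2 Mb, or 28.1% of autosomal bases, and held 72.0 regions per Mb. Promoter regions away from small RNA genes numbered 1055 (10.2% of autosomal regions) in 7.53% of bases, or 170 regions per Mb, and gene body regions 7081 (68.8%) in 63.9% of bases, or 134 per Mb. On X the same rule gave 453 regions and 68.5 per Mb. All 1669 members were 440 bp wide, and they formed 1600 separate regions once overlapping members were merged. The median gap to the next member was 12518 bp, and 194 members (11.6%) lay within 1000 bp of another.

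Signal, the authors' own value for each region, ranged over the members between 28.3 and 182, with a median of 33.9 and quartiles of 30.7 and 40.4. The medians were 36.5 for promoter regions and 34.7 for gene body regions in the same list. The highest member had rank 39 of the pooled list, the median member rank 6760 and the lowest rank 12025, and 100 members were among the first 1000. Of the members, 32 were themselves peaks of the authors' reproducible list (all autosomal regions, 3.05%), and 39 overlapped such a peak (2.34%, 1.67 to 3.18), against 3.84% of all autosomal regions. The 32 were also the only members among the 460 regions with the highest pooled signal, so membership there follows pooled rank. At the edge of the rule, 42 members had a summit within 50 bp inside the upstream limit, with a median signal of 32.6, 12 of them supported by both replicates. The 61 regions within 50 bp outside that limit had a median of 33.6, with 28 supported by both. No member lay within 50 bp inside the limit around small RNA genes, and 3 regions lay just outside it, with a median signal of 29.5.

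Replicate 1 and replicate 2 each recovered about the same number of members, but often not the same ones. A relaxed peak of replicate 1 overlapped 1127 members (67.5%, 65.2 to 69.8), and one of replicate 2 overlapped 1128 (67.6%, 65.3 to 69.8). Both did so at 672 members (40.3%, 37.9 to 42.7), replicate 1 alone at 455, replicate 2 alone at 456 and neither at 86. Over all autosomal regions 46.9% were overlapped by both, with 52.4% (49.4 to 55.5) of promoter regions and 44.8% (43.7 to 46.0) of gene body regions, so the intergenic share was the lowest of these. With a replicate summit required within 100 bp of the member's summit the share was 23.8%, and with the upper 50% by signal of each replicate's list it was 19.2%. The pooled list was derived from the alignments or lists of both replicates, so this support is not independent of pooled signal.

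Support followed signal closely. All of the first 75 members by pooled signal were overlapped by both replicates, and the highest member with a peak of neither was number 554. By rank among members, both replicates overlapped 98% (93.0 to 99.8) of members 1 to 100, 73.3% of members 101 to 500, 37.2% of members 501 to 1000 and 14.2% (11.6 to 17.1) of the last 669. Across the 672 members with both peaks, signal in replicate 2 went with signal in replicate 1 with Spearman's rho of 0.37 and Pearson's r of 0.52 on the log2 scale. These describe regions that share 2 libraries and are not independent, and 118 members shared their replicate 1 peak with another member, as 124 did in replicate 2.

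**Figure D1:**
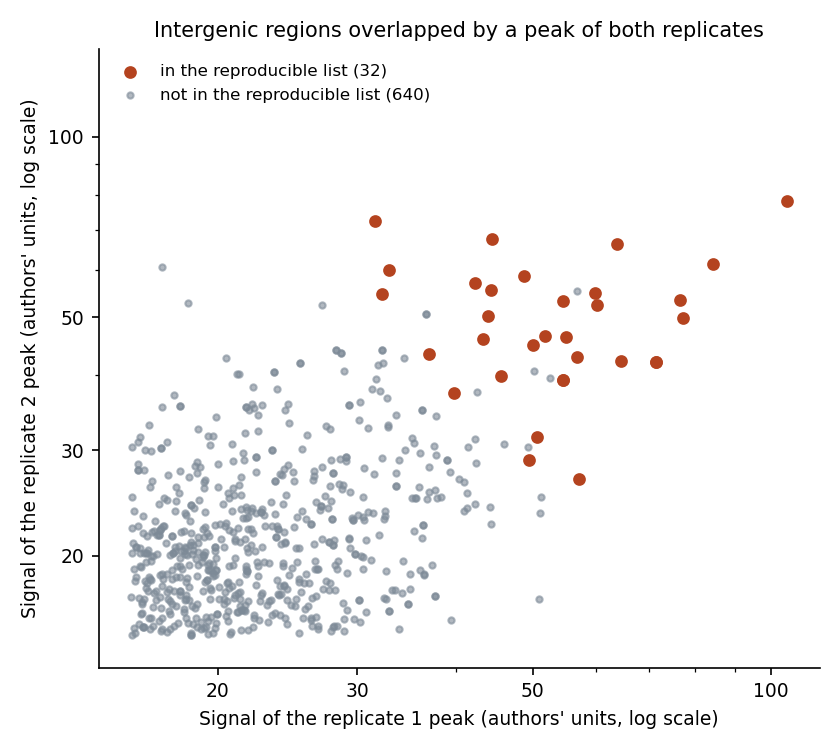
Signal of the overlapping peak in replicate 1 (x axis) and replicate 2 (y axis), in the authors' units on log scales, for the 672 intergenic regions with a peak in both; each point is 1 region and the 32 in the reproducible list are larger and coloured. The scales of the lists differ, so only the order within an axis can be read, and the 32 sit toward the upper right, with alh-3/hrg-5 highest at 105 and 78.1.

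The 20 members with the highest pooled signal were overlapped by both replicates without exception. Their peaks had signals of 31.7 to 105 in replicate 1 (median 56.0) and of 39.3 to 78.1 in replicate 2 (median 54.1). In replicate 1, 18 of the 20 had a rank of 1000 or better in the whole list, and in replicate 2 all 20 did. The microRNA region between alh-3, an aldehyde dehydrogenase gene, and hrg-5, a heme-responsive gene, had signal 182 in the pooled list, with 105 (rank 30) in replicate 1 and 78.1 (rank 69) in replicate 2. It was the highest of the members in each replicate's own order. The region between cysl-2, which encodes a cysteine synthase-like protein, and dhs-8, a short-chain dehydrogenase gene, had signal 148 pooled, 84.5 (rank 52) in replicate 1 and 61.3 (rank 139) in replicate 2. The region between F09E5.7 and the chemoreceptor gene srg-69 had 131 pooled, 76.7 (rank 74) in replicate 1 and 53.4 (rank 211) in replicate 2. The region between C14C11.7 and pqn-13, a gene for a glutamine- and asparagine-rich protein, had 127 pooled, 63.9 (rank 130) in replicate 1 and 66.2 (rank 115) in replicate 2. None of the 4 had a rank beyond 211 in either replicate's list.

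Other members of the first 20 differed more between replicates. The region between hcp-3, which encodes the centromeric histone H3 variant, and hlh-11, a helix-loop-helix gene, had pooled signal 107 with rank 1223 in replicate 1 and rank 88 in replicate 2. The region between cdk-14 and zfr-1 had pooled signal 95.4 with rank 1047 in replicate 1 and rank 149 in replicate 2. In both the replicate 2 peak was the stronger by rank, whereas over the 20 members replicate 1 gave the better rank at 12. The region between wve-1, which encodes a WAVE actin regulator, and R06C1.4 (signal 109) lay between diverging genes, 583 bp from the nearer 5' end. So did that between egrh-2, an early growth response homologue, and lep-2, a Makorin gene (signal 110.4), with its summit 914 bp and 917 bp from the 5' ends of the genes. The region between aagr-1, an acid alpha-glucosidase related gene, and D2096.7 had signal 125, 188 bp and 163 bp past the 3' ends of the genes, with rank 70 in replicate 1 and rank 270 in replicate 2. The tandem repeat between nlp-46, a neuropeptide-like gene, and T28H10.2 had signal 115, with rank 223 in replicate 1 and rank 498 in replicate 2.

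The remaining members of the first 20 lay at varied distances. That 118 bp past hmg-1.1, which encodes a high mobility group protein, had signal 98.5, and that 411 bp past tsr-2, upstream of the STAT gene sta-1, had signal 106. Farther from gene ends lay the regions 509 bp upstream of K12H4.5 (signal 103), 1817 bp past fbxa-55, an F-box gene (99.8), and 4968 bp upstream of nas-30, an astacin protease gene (92.8). Of the 20 members, 7 lay between divergent genes, 11 between genes in tandem and 2 between convergent genes, and 9 lay up to 500 bp past a 3' end.

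Members lay just past the 3' ends of genes more often than positions under the same rule did. The summit lay up to 500 bp past a 3' end that faced it in 540 of 1669 members (32.4%, 30.1 to 34.7), against 15.3% of positions that met the same rule (every 50th base of the autosomes). The nearest gene end of any kind was a 3' end for 963 members (57.7%, 55.3 to 60.1), against 46.8% of positions. The median distance to the nearest gene end was 916 bp (824 to 996) for members and 1443 bp for positions. The rule removes sequence upstream of 5' ends from members and positions alike, so these shares are read against the positions and not against an equal split. Members up to 500 bp past a 3' end were overlapped by both replicates in 50.4% (46.1 to 54.7) of cases, with a median signal of 36.7, against 35.4% (32.6 to 38.3) and 33.1 for the other 1129 members. Median GC content was 36% past 3' ends and 37.7% elsewhere.

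Distance made the step visible. Among positions whose nearest gene end was a 3' end, density was 160 regions per Mb in the first 100 bp (135 to 188, exact Poisson interval), 169 per Mb between 200 and 300 bp and 108 per Mb between 400 and 500 bp. It was 84.0 per Mb between 500 and 750 bp, 46.8 per Mb (33.6 to 63.5) between 750 and 1000 bp, 61.3 per Mb between 1000 and 1500 bp and 65.9 per Mb (50.4 to 84.7) between 1500 and 2000 bp. On the side of 5' ends, where the rule starts at 500 bp, density was 71.9 per Mb (59.6 to 85.9) between 500 and 750 bp, and it lay between 42.5 and 65.1 per Mb in the bands from there to 10000 bp. At the same distance of 500 to 750 bp the intervals for the 2 kinds of end overlapped. Regions are 440 bp wide, so members close to a gene also cover its last bases. When the whole region had to meet the rule, 1229 members were left, and 17.6% of them lay up to 500 bp past a 3' end, against 7.80% of the positions that met it.

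**Figure D2:**
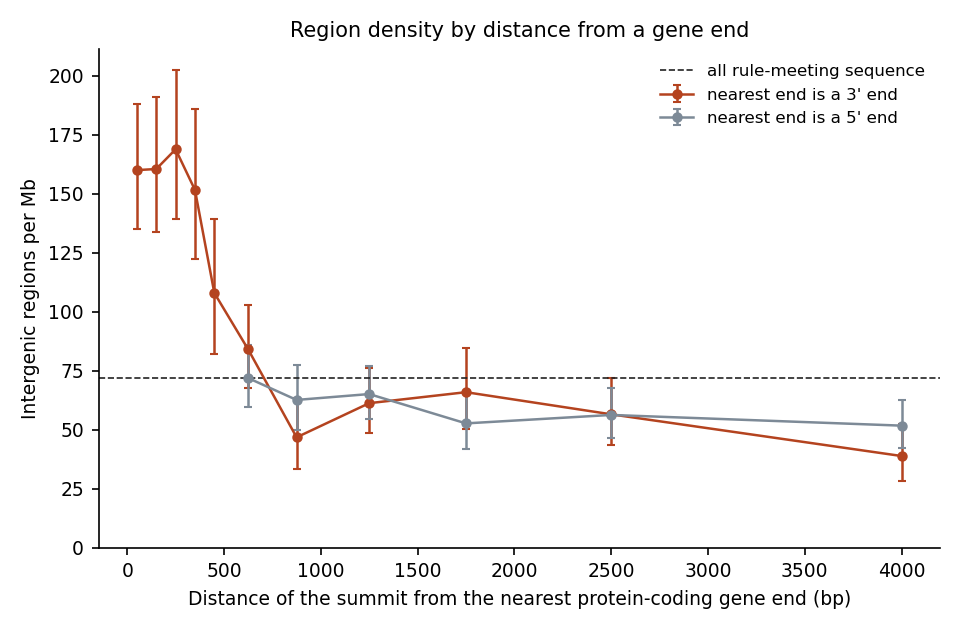
Intergenic regions per Mb of rule-meeting sequence (y axis) by distance of the summit from the nearest protein-coding gene end in bp (x axis), for sequence nearest a 3' end and sequence nearest a 5' end; points are bands of distance up to 5000 bp, bars are exact 95% Poisson intervals of the counts, and the dashed line is the density over all such sequence, 72.0 per Mb. Density near 3' ends stays between 152 and 169 per Mb up to 400 bp and between 38.9 and 65.9 per Mb in the bands beyond 750 bp.

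The share at this position differed by band of signal. Of members 1 to 100 by pooled signal, 58% (47.7 to 67.8) lay up to 500 bp past a 3' end, with 44.3% (39.3 to 49.3) of members 101 to 500, 29.6% (25.6 to 33.8) of members 501 to 1000 and 23.5% (20.3 to 26.9) of the last 669, against 15.3% of positions. Within the first 100 the order was not kept, with 9 of the first 20 (45%, 23.1 to 68.5) and 49 of the next 80 (61.3%, 49.7 to 71.9) at this position. The median distance to a gene end ran in the same order, at 351 bp, 578.5 bp, 1002 bp and 1138 bp. Of the 32 members of the reproducible list, 18 lay up to 500 bp past a 3' end.

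**Figure D3:**
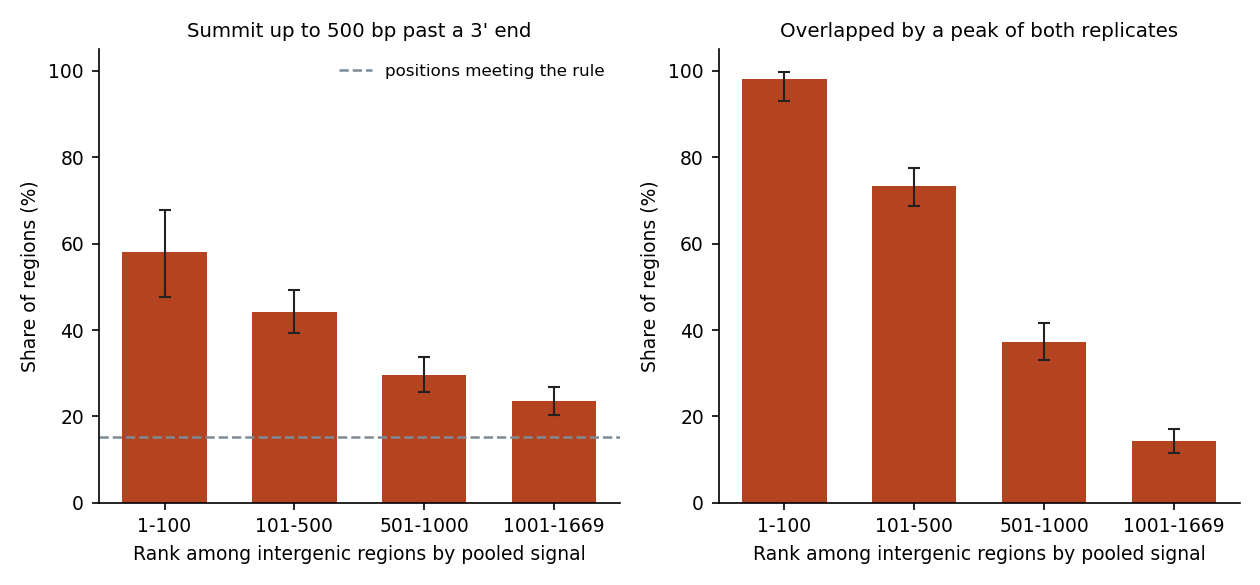
Left, share of intergenic regions with the summit up to 500 bp past a 3' end, by rank among the members (x axis); right, share overlapped by a peak of both replicates, by the same ranks. Bars are percentages with exact 95% intervals and the dashed line is the 15.3% of rule-meeting positions; both shares are highest for ranks 1-100, at 58% and 98%.

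Gene orientation showed the same arrangement. Between convergent genes, whose 3' ends face each other, lay 294 members (17.6%, 15.8 to 19.5) in 14.8% of the bases, or 85.7 per Mb. Tandem genes flanked 961 members at 76.4 per Mb, and divergent genes flanked 414 (24.8%, 22.7 to 27.0) in 30.8% of the bases, or 57.9 per Mb. Both replicates overlapped 45.9% of the convergent, 40.1% of the tandem and 36.7% of the divergent members. In 88 members the summit lay up to 500 bp past both 3' ends of a convergent pair, so these cannot be assigned to either gene. Examples from the reproducible list are the region 48 bp past thoc-2, which encodes a THO complex subunit in mRNA export, and 145 bp past rps-13, a gene for a small ribosomal subunit protein, with pooled signal 82.3, rank 221 in replicate 1 and rank 495 in replicate 2. Another lay 27 bp past klp-18, a kinesin gene of the meiotic spindle, and 337 bp past tin-9.1, with pooled signal 87.5, rank 411 in replicate 1 and rank 264 in replicate 2. One more lay 58 bp past cpg-1, which encodes an eggshell chondroitin proteoglycan, and 177 bp past atf-7. Its pooled signal was 87.8, with rank 262 in replicate 1 and rank 319 in replicate 2.

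Which genes these were is described by families of names, chosen after values had been seen. Of 10123 autosomal protein-coding genes with rule-meeting sequence in the first 500 bp past their 3' end, 599 (5.92%) had a member there. Genes for ribosomal proteins had one in 14 of 33 cases (42.4%, 25.5 to 60.8). Where a gene had more than 1 member there, the strongest is described, in this family and the others. Their signal ranged between 39.5 and 113 with a median of 58.4. Every member counted, the median was 36.7 for members up to 500 bp past any 3' end and 33.9 for all members. The summit lay 50 to 416 bp past the 3' end, with a median of 180 bp. In 7 of the 14 it also lay up to 500 bp past the 3' end of a convergent neighbour, which was nearer in 5 and equally near in 1, so these cannot be assigned to the ribosomal protein gene. The other 7 had signals of 39.5 to 113 with a median of 56.1. A region past 2 genes was counted for both genes throughout, in the families and in the 5.92%. All 14 were among the first 500 members and 7 among the first 100, although the rule-meeting sequence past these genes was shorter, with a median of 202 bp against 500 bp over all genes. When the whole region had to meet the rule, 7 ribosomal protein genes had a member there. That count takes any member past the gene and not only the strongest. At rps-6, for example, the strongest has its summit 136 bp past the 3' end and did not meet it.

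Among the ribosomal protein genes, rps-6 had the strongest region, with pooled signal 113, 60.3 (rank 157) in replicate 1 and 52.5 (rank 231) in replicate 2. The region past rpl-7A, a large subunit gene, and 200 bp past its convergent neighbour tald-1, a transaldolase gene, had pooled signal 75.4, with rank 1114 in replicate 1 and rank 415 in replicate 2. That past rps-9 had pooled signal 70.7, with rank 1131 in replicate 1 and rank 364 in replicate 2. That 166 bp past rps-17 lay 15 bp past the convergent gene rbm-5 and had pooled signal 69.4, with rank 2273 in replicate 1 and rank 235 in replicate 2. Both replicates recovered 12 of the 14. The region past rps-15 had no overlapping peak in replicate 2, and that past rps-8 had none in replicate 1.

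Other families contributed smaller numbers, but all except the histone genes also held fewer genes. The shares were 30.8% (9.09 to 61.4) for ATP synthase and respiratory chain genes and 28.6% (3.67 to 71.0) for actins and tubulins. For translation factors the share was 33.3% (0.840 to 90.6). All 3 shares lay within the interval for ribosomal protein genes. Histone genes had a member past the 3' end in 7 of 58 cases (12.1%, 4.99 to 23.3), with signals of 28.6 to 87.4 and 1 in the reproducible list, 262 bp past a gene named his-47 and 158 bp past its convergent neighbour edg-1. In 4 of the 7 a convergent neighbour's 3' end also lay within 500 bp. Core histone genes are near-identical copies, and the annotation gives the symbol his-47 to more than 1 gene, so these are identified by position only. Genes for the mitochondrial ATP synthase and respiratory chain had 4 of 13, namely atp-1 (signal 73.7, also 201 bp past the convergent T26E3.7), cox-5A (67.1), cox-5B (43.0) and cox-6C (30.4). Of 7 actin and tubulin genes, act-2 had a region of signal 75.9 at rank 289 in replicate 1 and rank 448 in replicate 2. The other lay 98 bp past the beta-tubulin gene tbb-2 and 33 bp past the convergent C36E8.4, so it cannot be assigned to either. It had signal 77.0 but rank 12110 in replicate 1 and rank 144 in replicate 2. What each replicate added to the pooled value was not measured. Translation factor genes, taken as those named eif or eef only, had 1 of 3, eif-2alpha, with signal 33.9 and a peak in replicate 1 only.

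The remaining families had shares below the 5.92% of all genes, and the intervals for C-type lectin and sperm protein genes included that value. Cuticle collagen genes had 0 of 90 (upper limit 4.02%), chemoreceptor genes 26 of 1000 (2.60%, 1.71 to 3.79), and genes of F-box and BTB domain proteins 5 of 283 (1.77%, 0.576 to 4.07). All the families were taken by name prefix alone, so they can hold genes of other kinds, as with dpy among the collagens and odr among the chemoreceptors. They can also miss genes of the same kind that have other names, as with translation factor genes not named eif or eef. C-type lectin genes had 9 of 176 (5.11%, 2.36 to 9.49) and sperm protein genes 2 of 61 (3.28%, 0.400 to 11.3). Neither transcript levels nor libraries of untagged animals were analysed here, and their part in these counts was not tested.

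Annotated noncoding genes other than those the rule left out, together with pseudogenes, accounted for few of the members beyond what the sequence offers. A summit lay inside or within 220 bp of one in 439 members (26.3%, 24.2 to 28.5), against 25.7% of positions, and inside one in 254. Members at such genes had a median signal of 33.9 and those at none also 33.9, with both replicates overlapping 40.1% and 40.3%. Of the 32 members in the reproducible list, 4 lay at such a gene. The classes differed. Pseudogenes held 197 members (11.8%, 10.3 to 13.4, against 13.7% of positions), and genes of the broad class ncRNA 133 (7.97%, 6.71 to 9.37, against 4.13%). Genes of piRNAs, the small RNAs of the germline that guide Piwi proteins, lay at 97 members (5.81%, 4.74 to 7.04, against 7.54%). Long intergenic RNA genes had 23 members (1.38%, against 0.937%). MicroRNA genes had 13 (0.779%, 0.415 to 1.33, against 0.179%). Antisense RNA and rRNA genes had 1 each, at anr-3 and rrn-4.15. A member can count in several classes.

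**Figure D4:**
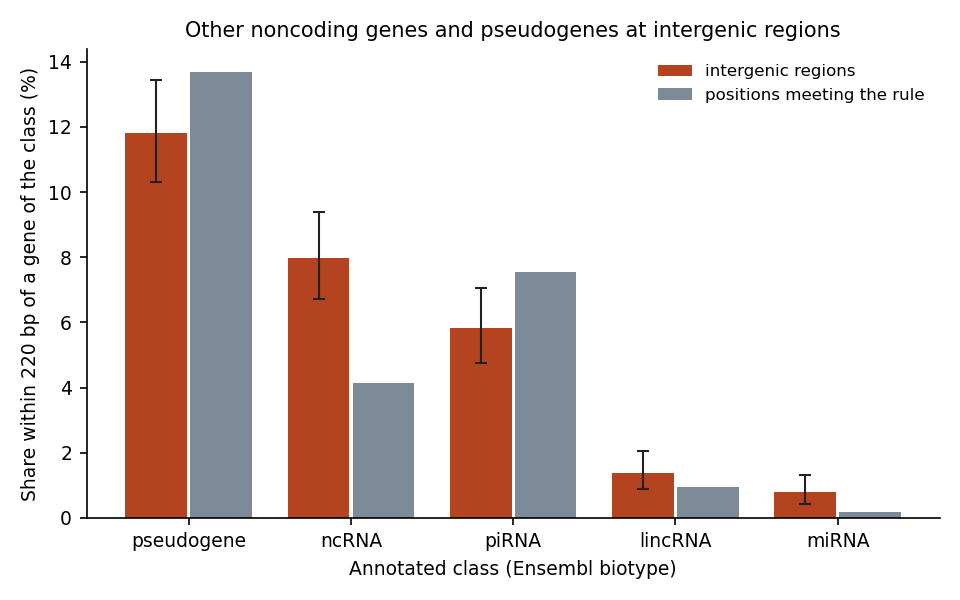
Share of the 1669 intergenic regions (coloured, with exact 95% intervals) and of rule-meeting positions (grey) that lie inside or within 220 bp of a gene of each annotated class (x axis), in percent (y axis). Regions exceed positions for ncRNA, 7.97% against 4.13%, and for miRNA, 0.779% against 0.179%, and lie below them for piRNA, 5.81% against 7.54%.

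The 13 members at microRNA genes had a median signal of 43.6, and both replicates overlapped 10 of them (76.9%). They include 2 overlapping pairs, at cel-mir-51 and at cel-mir-48, that share replicate peaks. With the stronger of each pair kept, 11 members had a median signal of 42.6, and both replicates overlapped 8. The strongest was at cel-mir-51, described above, which belongs to a large and abundant microRNA family. The region at cel-mir-4936, 112 bp past the 3' end of Y53G8AL.4, had pooled signal 109, with rank 314 in replicate 1 and rank 162 in replicate 2. At cel-mir-48, a let-7 family microRNA of developmental timing, signal was 57.6, with rank 1625 in replicate 1 and rank 696 in replicate 2. Of the 3, the first and the second were in the reproducible list.

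In the ncRNA class, 70 of 133 members (52.6%) were overlapped by both replicates and 3 overlapped a reproducible peak. After the 2 strongest regions of all, which lie at F36H1.17 and at K10H10.11 and K10H10.14, came T04C12.14 with signal 75.9, in the same region that lies 163 bp past act-2. Among pseudogenes the strongest was WBGene00005445, between the chemoreceptor genes srw-33 and str-71, with signal 100.4, rank 460 in replicate 1 and rank 176 in replicate 2. Next came WBGene00008465, beside his-70, with signal 64.6. The 31 bases at its summit occur 80 times in the genome, so reads there cannot be placed with certainty. WBGene00012202, 209 bp past rsp-1, a gene for an SR splicing factor, followed with signal 60.7, rank 5393 in replicate 1 and rank 723 in replicate 2. The 3 strongest long intergenic RNAs were linc-1 at 56.1, linc-128 at 47.0 and linc-156 at 42.2. The rRNA member, at rrn-4.15, a 5S rRNA gene, had signal 57.8.

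Of the 97 members at piRNA genes, 88 were on IV, where most piRNA genes of this species lie in clusters, and none overlapped a reproducible peak. Both replicates overlapped 26 of them (26.8%), fewer than the 40.3% of all members, and their median signal was 32.2. The highest was the region between C36E8.4 and tbb-2, in which 21ur-13952 lies 105 bp from the summit. The regions at 21ur-15698 and 21ur-15384 followed, with signals of 63.4 and 62.2, and the region at 21ur-15384 had no peak in replicate 2. Of the 5 members farthest from any gene end, 3 lay upstream of hlh-32 at piRNA genes. Their nearest gene ends were 28799 bp, 24768 bp and 19311 bp away. The end at 24768 bp belonged to the other flanking gene, and hlh-32 lay 40251 bp from that member. All 3 were overlapped by replicate 1 only. The farthest of all, 33569 bp from Y73B6A.3 and at the pseudogene WBGene00044503, had signal 40.5 and was overlapped by replicate 2 only. The fifth, 19339 bp from F40D4.17 at the noncoding RNA gene Y102A5D.22, had signal 32.5 and was overlapped by replicate 1 only.

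Sequence under the members was richer in GC than the sequence the rule offers. Over 300 bases centred on the summit, median GC was 36.7% in members, 35.0% in promoter regions, 39.0% in gene body regions and 33.7% in 77261 windows that met the rule. The 31 bases at the summit occurred more than once in the genome in 71 members (4.25%, 3.34 to 5.34), against 1.61% of promoter regions, 1.75% of gene body regions and 14.9% of the windows. With 21 bases the share of members was 9.77%. The authors' treatment of reads that map to several places is not given in the sources used here.

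Single motifs were looked for on both strands of the same 300 bases. The GA repeat GAGAGAGA was in 5.45% of members (4.41 to 6.65), 4.17% of promoter regions, 2.22% of gene body regions and 2.57% of windows. The piRNA upstream motif, searched as CTGTTTCA, was in 3.54% of members, 2.09% of promoter regions, 2.10% of gene body regions and 4.54% of windows. A run of TTTTTTTT was in 30.2% of members, 29.3% of promoter regions, 22.3% of gene body regions and 34.2% of windows. The B box core GTTCGANNC was in 4.55% of members (3.60 to 5.67), 1.99% of promoter regions, 3.28% of gene body regions and 2.26% of windows.

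The B box core was then searched in 4 versions (GTTCGANNC, GATCGANNC, GTTCAANNC and GATCAANNC), alone and with an A box 25 to 100 bases before it on the same strand, a search chosen after the printed sequences had been seen. The A box was searched by an 11-letter consensus. Alone, the 4 versions were in 13.96% of members (12.3 to 15.7), 7.96% of promoter regions, 12.95% (12.2 to 13.8) of gene body regions and 10.2% of windows, a smaller difference than with the single version. As a check, 71.6% of 612 annotated tRNA genes held the pair. It was in 30 members (1.80%, 1.22 to 2.56), in 0.379% of promoter regions, in 0.311% of gene body regions and in 0.285% (0.248 to 0.325) of windows that met the rule. Among the 32 members of the reproducible list 5 held it (15.6%, 5.28 to 32.8), as did 8 of members 1 to 100 (8%, 3.52 to 15.2) and 0.897% of the last 669. The 2 printed members that led to the search are among them, and without these the pair was in 3 of 30 reproducible members (10%, 2.11 to 26.5), 6 of 98 (6.12%, 2.28 to 12.9) and 28 of all 1667 (1.68%, 1.12 to 2.42). The centre of the pair lay a median of 40 bp from the summit, and both replicates overlapped 16 of the 30. A match describes letters and does not show a transcribed gene.

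**Figure D5:**
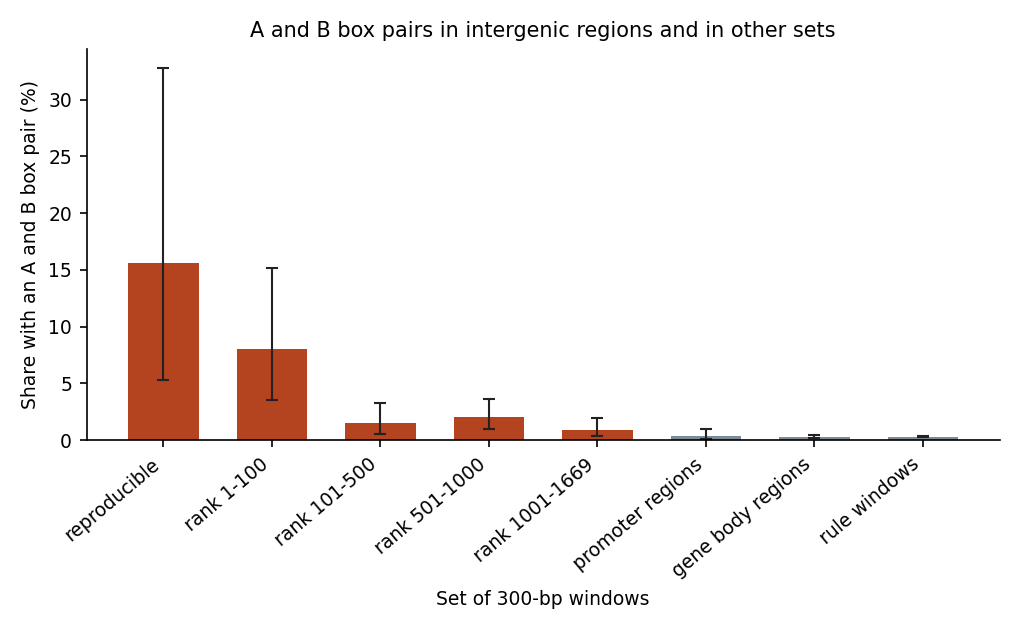
Share of 300-bp windows with an A box and a B box core on the same strand (y axis, percent, with exact 95% intervals) in intergenic regions of the reproducible list and of each rank band (coloured), and in promoter regions, gene body regions and windows meeting the rule (grey). The share is 15.6% in the 32 reproducible regions and 0.285% in the windows; the 32 also belong to ranks 1-100 and include the 2 printed regions that led to the search.

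The 5 reproducible members with the pair lay on 3 chromosomes, and none was within 220 bp of an annotated tRNA pseudogene. They were F09E5.7/srg-69 and C14C11.7/pqn-13, printed above, and the following 3. The region 3982 bp past dpy-1 and upstream of ckr-2, a cholecystokinin receptor gene, had pooled signal 108, rank 220 in replicate 1 and rank 214 in replicate 2. That between CD4.11 and vps-37, which encodes a subunit of the endosomal sorting complex, had pooled signal 95.2, rank 291 in replicate 1 and rank 354 in replicate 2. That between mrpl-40, a mitochondrial ribosomal protein gene, and pat-4, which encodes integrin-linked kinase, had pooled signal 79.9, rank 297 in replicate 1 and rank 1428 in replicate 2. Over all members, 10 lay within 220 bp of a tRNA pseudogene annotated by RefSeq (0.599%, 0.288 to 1.10, against 0.127% of bases). None of these 10 was in the reproducible list, their highest signal was 44.4, and 5 held the pair. The rule left out annotated tRNA genes but not these pseudogenes.

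Members were spread over all the autosomes. Density was 86.9 per Mb on III, 81.1 on I, 73.5 on II, 65.1 on IV and 64.6 on V. The chromosome centres, taken as the middle of 3 equal parts of each, held 32.1% of members (29.8 to 34.4) and 31.1% of the rule-meeting bases. On II the centre had 59.0 per Mb and the arms 80.4 per Mb, while on I the centre had 97.6 per Mb and the arms 73.9 per Mb. Both replicates overlapped between 37.1% of members on IV and 43.2% on I. The strongest member on each was rps-6/Y71A12B.10 on I (113), cysl-2/dhs-8 on II (148), nduf-9/Y53G8AL.4 on III (109), alh-3/hrg-5 on IV (182) and C14C11.7/pqn-13 on V (127).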

How the data were processed

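Lists of peaks on ce11 were read for each replicate, for the pooled replicates and for the reproducible set, 4 lists in all. Per the deposited file descriptions, the authors made relaxed lists, which hold background as well as peaks, against a control, and selected reproducible peaks by the irreproducible discovery rate. No source used here gives the aligner, the caller, its version or the threshold. The signal deposited by the authors for each peak served for ranking inside each list alone, since lists differ in scale. Read depth is unknown from these lists.

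Genes came from Ensembl release 115 (WBcel235), and sequence and tRNA pseudogenes from RefSeq. An overlap of 1 bp or more counted as shared. Positions that meet the rule are every 50th autosomal base. Shares carry exact Clopper-Pearson intervals at 95% and densities exact Poisson intervals, which cover counting error only. With 1 group, nothing was tested between conditions, and no p-value was computed. The members, families of genes and motifs were chosen with earlier results of these data known. The genes named are those of the 20 members with the highest signal, the 3 strongest of each noncoding class, the strongest on each autosome, the 5 farthest from a gene and, chosen after their values were seen, examples past 3' ends. The functions were tested on simulated data. Scripts ran in Python (3.11.15) with pandas (2.3.3), numpy (2.4.6), matplotlib (3.10.9) and scipy (1.17.1).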

Additional observations from a re-analysis of the deposited data

How the results depend on the processing

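Alternatives are given in the order share of autosomal regions, share supported by both replicates, share overlapping a reproducible peak, share at a noncoding gene or pseudogene, median distance to a gene end, share nearest a 3' end and share up to 500 bp past one, and values are named where they moved beyond the interval of the reported value. With 250 bp upstream left out the share of regions was 19.9%, the median distance 601 bp and the share nearest a 3' end 51.4%, and with 1000 bp these were 12.9%, 1267 bp and 62.3%. When the whole region had to meet the rule, the values were 11.9%, 37.3%, 1.55%, 30.8%, 1388 bp, 51.5% and 17.6%. In the upper 50% of the pooled list by signal the share of regions was 14.3%, both replicates supported 67.1%, 4.99% overlapped a reproducible peak, the median distance was 620 bp, 64.2% were nearest a 3' end and 42.4% lay up to 500 bp past one. In the first 1000 regions the values were 12.8%, 98%, 34%, 19%, 351 bp, 72% and 58%, and the share with a repeated summit was 9%. Support by both replicates was 34.5% with an overlap of at least 50% of the region, 23.8% with a summit within 100 bp and 19.2% with the upper 50% of each replicate's list. The share with the summit inside a noncoding gene or pseudogene was 15.2%, and 21 bases gave a repeated summit in 9.77%.

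Replicate lists taken alone gave 17.2% to 18.3% of regions, 1.61% to 1.71% overlapping a reproducible peak, 25.9% to 27.2% at a noncoding gene, a median distance of 958 to 1032.5 bp, 54.4% to 54.7% nearest a 3' end, 3.80% to 4.11% with a repeated summit, 28.4% to 29.3% up to 500 bp past a 3' end and 10 to 11 ribosomal protein genes. The 14 ribosomal protein genes were 7 when the whole region had to meet the rule and 7 in the first 1000 regions. Distances of 100 or 500 bp around small RNA genes, the 5' ends of every transcript and merged regions kept each value within its interval. The cause of these moves was not tested beyond what each definition changes itself.

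With 2 libraries of unknown depth and no untagged sample analysed here, a region seen in 1 replicate cannot be told apart from one missed in the other.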
